A study of Arabidopsis thaliana with 18 samples.

Results

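The genes described here were the 6 plant defensin genes of Arabidopsis thaliana class PDF1, 2 ethylene response factor genes that act on them and 2 further pathogenesis-related genes. The defensin genes were PDF1.1 (AT1G75830), PDF1.2 (AT5G44420), PDF1.2b (AT2G26020), PDF1.2c (AT5G44430), PDF1.3 (AT2G26010) and PDF1.4 (AT1G19610). The factors were ORA59 (AT1G06160) and ERF1 (AT3G23240), and the others were PR4 (AT3G04720) and HCHIB (AT3G12500). They were 10 of the 32833 genes in the deposited table. They were selected on measured values of this table, because several defensin transcripts were far lower in ein3eil1 leaves than in wild-type leaves. Differences between ein3eil1 and wild type are therefore given below as a description, without a test. The data were mRNA levels in leaves of 4-week-old plants of 3 lines, phyA-211 (a mutant of the photoreceptor gene PHYTOCHROME A), ein3eil1 (a double mutant of the ethylene transcription factor genes EIN3 and EIL1) and wild type. Plants grown on land were submerged for 6 h or kept in air, which gave 6 groups of 3 libraries. All 18 libraries carry the word mock in their titles, and the labels give neither the alleles of the double mutant nor whether replicates were separate plants, so p-values measure the spread between these samples, which may be technical.

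Plant defensins of this class are small, cysteine-rich, secreted peptides that inhibit fungal growth. When ethylene is perceived, the proteins EIN3 and EIL1 are no longer degraded and switch on further transcription factor genes, among them ERF1. ERF1 and ORA59 take in both the ethylene and the jasmonate signal and bind the GCC box, a short GC-rich element in the promoters of PDF1.2 and other defence genes. The transcription factor MYC2 drives another branch of jasmonate responses and holds the ethylene response factor branch back, and salicylate signalling also lowers PDF1.2.

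The stretch upstream of the annotated start was read for all 10 genes from the RefSeq assembly TAIR10.1, a later minor release of the build TAIR10 named in the submitters' processing notes. PDF1.2 and PDF1.2c lie next to each other on chromosome 5, and PDF1.3 and PDF1.2b lie next to each other on chromosome 2. Windows from 250 bases before to 50 bases after the start were searched on both strands for GCCGCC, the core of the GCC box. It was found in 3 of the 10 genes (PDF1.2, PDF1.2b and ORA59), against 2.57% of 27443 promoters of the same length. The form ATGTANCT, bound by EIN3, was found in 1 of 10 (PDF1.2c), against 4.16% of promoters. The G-box CACGTG was found in 1 of 10 (ORA59), against 7.68% of promoters, and no matches of these motifs overlapped. The upstream stretches of 250 bases are shown for the 4 defensins with the highest mean levels in air wild type, for PDF1.1, whose pattern differed from theirs, and for ORA59. Each runs 5′ to 3′ on the strand of its gene and ends at the base before the start. Capitals mark the GCC box core, the EIN3 site form (in PDF1.2c, on the opposite strand) and the G-box (the second capital run of ORA59).
PDF1.2, chr5:17907639-17907888, minus strand: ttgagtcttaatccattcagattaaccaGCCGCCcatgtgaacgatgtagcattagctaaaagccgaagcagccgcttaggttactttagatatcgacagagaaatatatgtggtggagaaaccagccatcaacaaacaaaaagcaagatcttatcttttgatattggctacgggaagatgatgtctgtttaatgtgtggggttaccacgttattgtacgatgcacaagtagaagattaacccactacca
PDF1.2c, chr5:17909508-17909757, minus strand: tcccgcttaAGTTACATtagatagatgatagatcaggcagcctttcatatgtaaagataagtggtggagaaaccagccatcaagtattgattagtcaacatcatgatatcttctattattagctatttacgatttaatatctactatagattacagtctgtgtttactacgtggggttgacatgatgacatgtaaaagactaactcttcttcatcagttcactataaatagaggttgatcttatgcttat
PDF1.2b, chr2:11088873-11089122, plus strand: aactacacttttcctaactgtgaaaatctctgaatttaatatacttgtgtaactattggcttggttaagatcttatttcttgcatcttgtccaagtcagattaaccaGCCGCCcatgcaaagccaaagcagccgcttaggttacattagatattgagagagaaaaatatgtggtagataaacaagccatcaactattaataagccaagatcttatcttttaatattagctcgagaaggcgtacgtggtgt
PDF1.3, chr2:11087030-11087279, plus strand: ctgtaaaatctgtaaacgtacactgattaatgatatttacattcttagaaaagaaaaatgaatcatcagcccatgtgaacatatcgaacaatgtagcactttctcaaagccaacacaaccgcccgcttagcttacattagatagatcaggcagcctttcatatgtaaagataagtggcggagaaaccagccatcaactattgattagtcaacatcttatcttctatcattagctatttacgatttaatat
PDF1.1, chr1:28472107-28472356, plus strand: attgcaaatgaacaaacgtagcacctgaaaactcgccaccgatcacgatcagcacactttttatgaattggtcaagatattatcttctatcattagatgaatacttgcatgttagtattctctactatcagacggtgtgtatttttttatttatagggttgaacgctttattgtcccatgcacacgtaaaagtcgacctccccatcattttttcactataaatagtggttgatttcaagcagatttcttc
ORA59, chr1:1882657-1882906, plus strand: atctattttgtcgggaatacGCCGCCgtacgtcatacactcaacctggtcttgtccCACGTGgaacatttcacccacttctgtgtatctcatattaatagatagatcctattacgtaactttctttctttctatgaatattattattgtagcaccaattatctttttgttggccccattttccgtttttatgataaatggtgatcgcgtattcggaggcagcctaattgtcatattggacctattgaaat

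The GCC box core lay 222 to 217 bases before the start in PDF1.2, 143 to 138 bases before it in PDF1.2b and 230 to 225 bases before it in ORA59. The PDF1.2 and PDF1.2b stretches shared a run of 22 bases around it, tcagattaaccaGCCGCCcatg. PDF1.2c and PDF1.3 shared a run of 38 bases. The longest run that PDF1.1 shared with any of the other 5 defensins was 17 bases, and for PDF1.4 it was 8 bases. A match describes the letters in these windows, which are placed by the annotated starts, and no match says nothing about letters outside them.

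**Figure D1:**
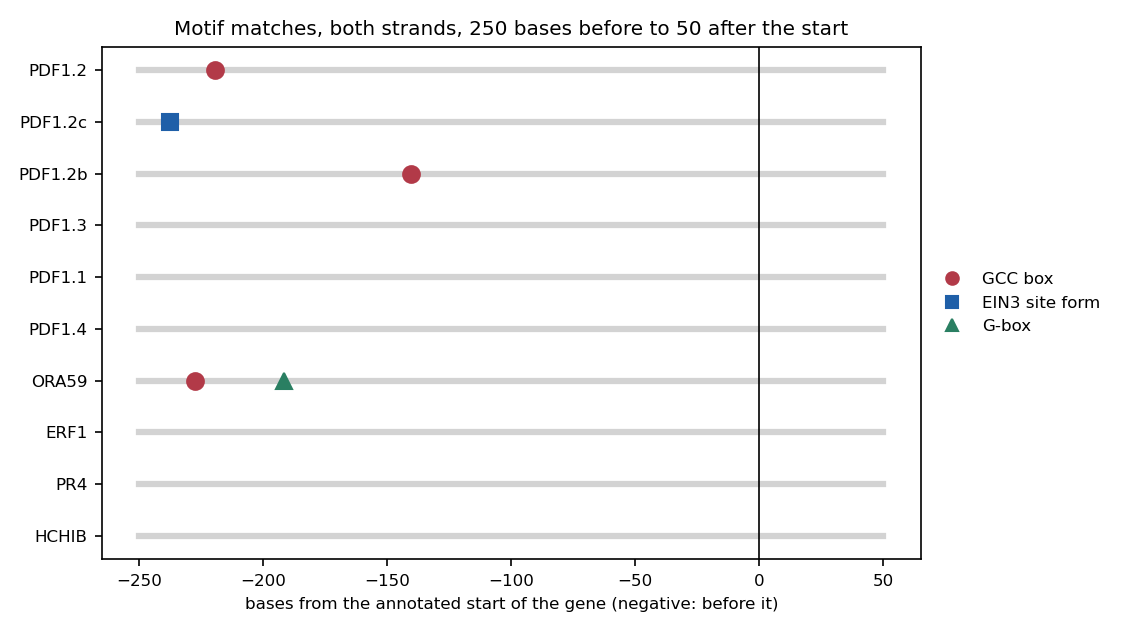
Position of the searched motifs in the upstream windows of the 10 genes, in bases relative to the annotated start (0), one line per gene. The GCC box core appears in PDF1.2, PDF1.2b and ORA59, the EIN3 site form in PDF1.2c and the G-box in ORA59.

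Expression values were in TPM, a unit scaled by transcript length, so levels of different genes can be set side by side. TPM summed to between 996104.85 and 998619.88 per library, read depth was not given in the sources used here, and 20611 to 23189 genes were above 0. The library of submerged phyA-211 replicate 1 stood apart from its group: its log2 values correlated with r of 0.9181 and 0.9320 with its own replicates and with 0.9566 to 0.9596 with submerged wild type. Results that rest on it are given with and without it. PHYA was lower in phyA-211, with 1.2, 1.2 and 1.83 TPM in air against 13.22, 11.07 and 10.83 TPM in wild type, and with 7.5, 10.63 and 12.75 TPM under submergence against 22.04, 23.81 and 22.98 TPM in wild type. EIL1 was lower in ein3eil1, with 17.03, 16.50 and 16.14 TPM in air against 38.16, 41.05 and 43.79 TPM in wild type. EIN3 had 26.94, 27.29 and 28.29 TPM in air ein3eil1 leaves against 61.99, 55.86 and 61.34 TPM in wild type, and 42.47, 49.37 and 41.56 TPM under submergence against 56.98, 56.82 and 49.58 TPM. Leaf mesophyll markers were present in every library: their 4 genes summed to 10980 to 56700 TPM, and were lower in the submerged mutants (16500 to 19070 TPM in phyA-211 and 10980 to 24830 TPM in ein3eil1, against 42660 to 43970 TPM in submerged wild type). In air, phloem and vascular markers were higher in ein3eil1, at 123.4 to 173.9 TPM for 4 genes against 57.26 to 81.41 TPM in wild type. Submerged, they were at 53.76 to 65.13 TPM in ein3eil1 and 32.27 to 60.02 TPM in phyA-211, against 25.86 to 27.04 TPM in wild type. Flower markers were at 0.99 to 59.51 TPM in air ein3eil1, 5.85 to 38.98 TPM in submerged ein3eil1 and 0.88 to 27.68 TPM in air phyA-211. Wild type had 1.3 to 6.57 TPM in air and 5.23 to 6.24 TPM submerged. Guard cell markers in air were at 102.5 to 111.2 TPM in ein3eil1 against 74.33 to 90.58 TPM in wild type. Air ein3eil1 also had lower mesophyll markers (29240 to 30910 TPM against 49370 to 54490 TPM in wild type) and higher epidermis and trichome markers (61.96 to 79.28 TPM against 32.31 to 50.29 TPM). The part of these markers in the results was not tested. In whole leaves, fewer cells of a type and less RNA per cell cannot be told apart.

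Among the defensins, PDF1.2, PDF1.2c, PDF1.3 and PDF1.2b formed a set that was lowest in ein3eil1 in air and under submergence. Mean TPM was higher in phyA-211 than in wild type, but for PDF1.3 under submergence this rested on submerged phyA-211 replicate 1: the log2 fold change was -0.09 with that library and -0.85 without it. PDF1.2, the usual marker of the joint ethylene and jasmonate response, had 5151.79, 2255.94 and 1875.64 TPM in submerged phyA-211 leaves against 3026.33, 4614.21 and 4421.60 TPM in air. It had 88.86, 6.35 and 86.21 TPM in submerged ein3eil1 leaves against 388.95, 22.39 and 29.03 TPM in air. Wild type had 866.57, 829.97 and 833.97 TPM submerged against 2028.74, 1194.03 and 1312.67 TPM in air. Every phyA-211 library but submerged replicate 3, at 1875.64 TPM, was above every wild-type library, and every ein3eil1 library was below all of the other 12. The air and submerged values overlapped within phyA-211 and within ein3eil1 but not within wild type. Ordered by mean (± SD, n = 3), PDF1.2 stood at 4021 ± 867 TPM in air phyA-211, 3094 ± 1790 in submerged phyA-211, 1512 ± 452 in air wild type, 843.5 ± 20.1 in submerged wild type, 146.8 ± 210 in air ein3eil1 and 60.47 ± 46.9 in submerged ein3eil1. Neighbours in this order overlapped, except that air wild type was above submerged wild type and submerged wild type above air ein3eil1 in every library.

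PDF1.2c, the neighbour of PDF1.2, had 5177.21, 2530.06 and 1539.50 TPM in submerged phyA-211 leaves against 1620.49, 3566.26 and 3316.49 TPM in air. It had 21.95, 1.62 and 29.35 TPM in submerged ein3eil1 leaves against 174.46, 6.06 and 5.78 TPM in air. Wild type had 522.53, 558.41 and 589.92 TPM submerged against 1003.50, 515.88 and 684.50 TPM in air. For PDF1.2c every phyA-211 library was above every wild-type library and every ein3eil1 library below them, while air and submerged values overlapped in each line. The level of PDF1.2c relative to PDF1.2 in the same library was 0.535 to 1.12 in phyA-211, 0.199 to 0.449 in ein3eil1 and 0.432 to 0.707 in wild type, so the pair did not keep a fixed ratio across the lines.

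PDF1.3 had 877.86, 268.28 and 122.86 TPM in submerged phyA-211 leaves against 809.38, 425.98 and 512.00 TPM in air. It had 10.79, 0.14 and 10.54 TPM in submerged ein3eil1 leaves against 45.85, 1.18 and 0.89 TPM in air, and 324.36, 322.76 and 336.15 TPM in submerged wild type against 544.59, 281.77 and 193.82 TPM in air wild type. The phyA-211 and wild-type ranges of PDF1.3 overlapped in both conditions, and all ein3eil1 libraries lay below both. PDF1.2b, next to PDF1.3 on the chromosome, had 348.05, 126.81 and 45.54 TPM in submerged phyA-211 leaves against 460.72, 289.75 and 330.67 TPM in air. Its values were 0.62, 0.00 and 2.24 TPM in submerged ein3eil1 leaves against 12.74, 0.61 and 0.39 TPM in air, and 68.51, 70.47 and 73.25 TPM in submerged wild type against 95.19, 50.48 and 113.13 TPM in air wild type. In air, PDF1.2b was higher in every phyA-211 library than in every wild-type library, and under submergence these ranges overlapped.

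**Figure D2:**
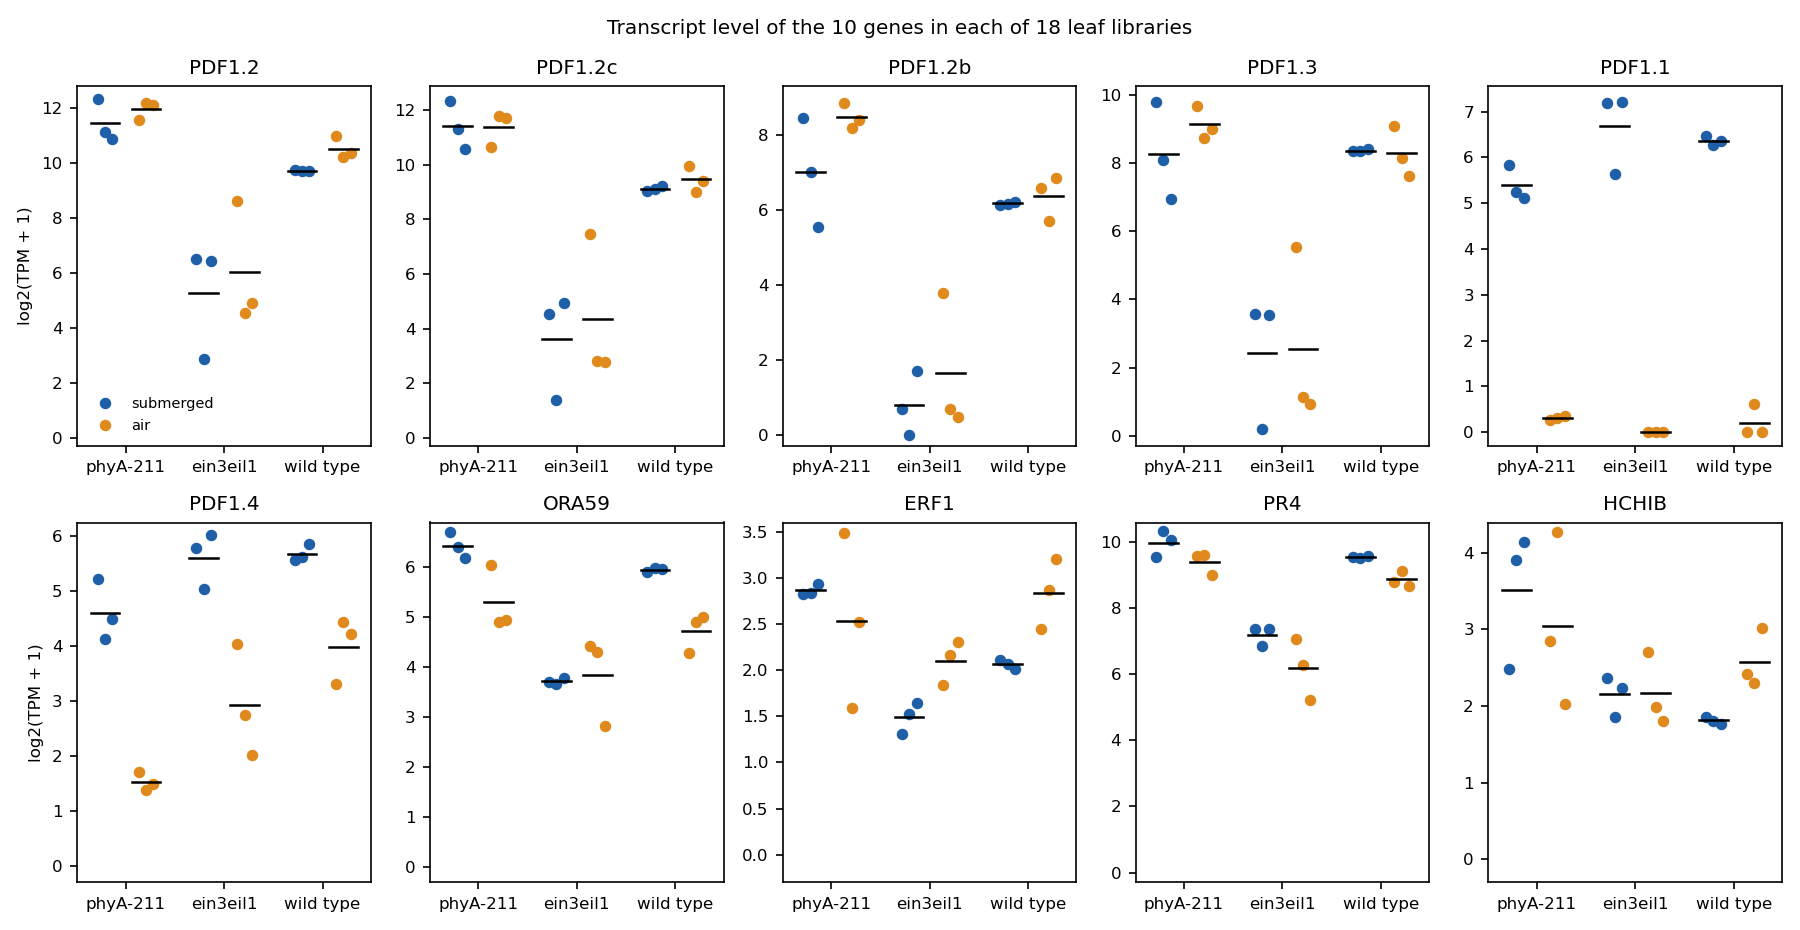
Level of each of the 10 genes in the 18 libraries, as log2(TPM + 1), with 1 point per library and the group mean as a bar. PDF1.2, PDF1.2c, PDF1.2b and PDF1.3 sit lowest in ein3eil1 in both conditions, whereas PDF1.1 and PDF1.4 separate submerged from air libraries in every line.

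Together these 4 transcripts made up 1.16%, 0.52% and 0.36% of all TPM in submerged phyA-211 libraries and 0.593%, 0.891% and 0.859% in air phyA-211 libraries. In ein3eil1 the share was 0.0123%, 0.000814% and 0.0129% submerged and 0.0623%, 0.00303% and 0.00362% in air. Wild type had 0.179%, 0.179% and 0.184% submerged and 0.368%, 0.205% and 0.231% in air. The highest share of any library was that of submerged phyA-211 replicate 1, the library that stood apart from its group. Ranked by TPM among all genes of its library, PDF1.2 was placed 13 to 43 in phyA-211, 314 to 12734 in ein3eil1 and 57 to 151 in wild type. A pair of ein3eil1 libraries set the spread of that line for all 4 genes, air replicate 1, which was highest, and submerged replicate 2, which was lowest.

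**Figure D3:**
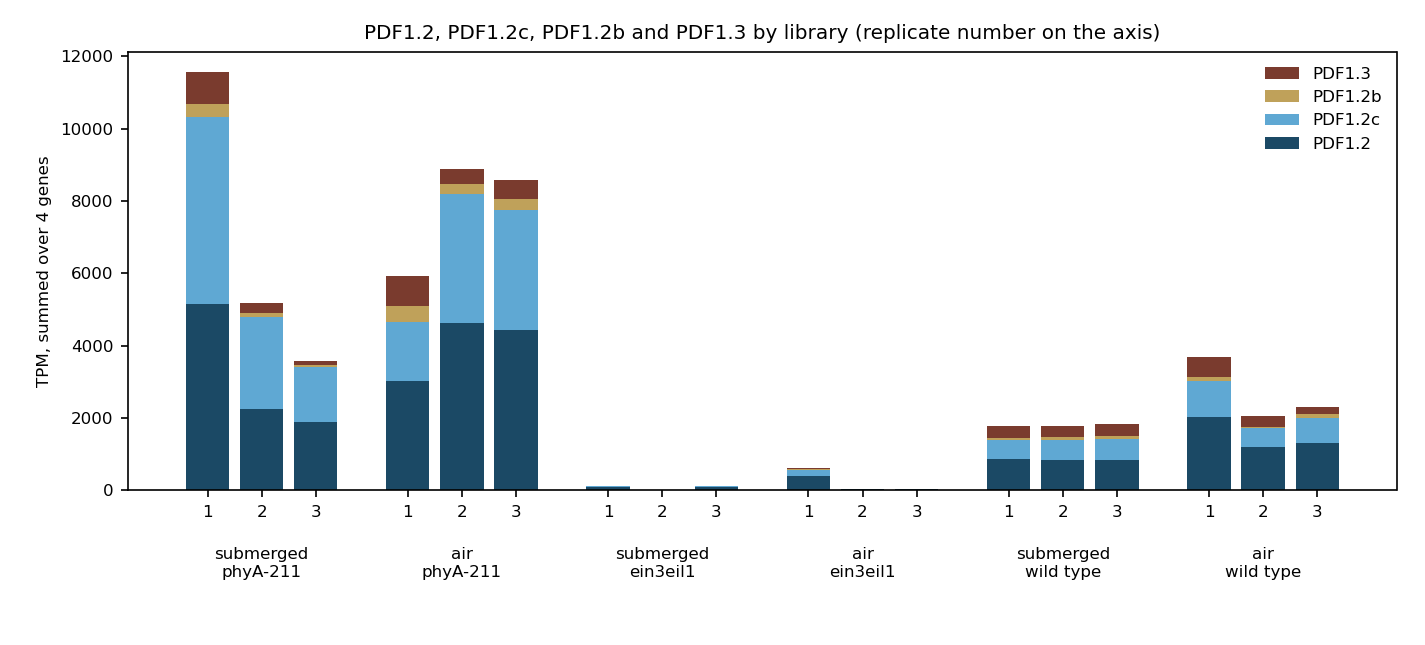
Summed TPM of PDF1.2, PDF1.2c, PDF1.2b and PDF1.3 in each library, as stacked bars by gene. The phyA-211 bars are taller than those of wild type except submerged replicate 3 (0.36% of its library), which is just below air wild-type replicate 1 (0.368%), submerged phyA-211 replicate 1 is the tallest at 1.16%, and the ein3eil1 bars are barely visible.

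Set against wild type in air, the mean log2(TPM + 1) of ein3eil1 was different by -4.50 for PDF1.2, -5.12 for PDF1.2c, -4.72 for PDF1.2b and -5.75 for PDF1.3. Under submergence the differences were -4.45, -5.51, -5.37 and -5.93 in the same order. Without ein3eil1 replicate 1 in air the PDF1.2 difference was -5.80, and without ein3eil1 replicate 2 under submergence it was -3.25. Every ein3eil1 library was below every wild-type library for 6 of the 10 genes in air, where 6.79% of all tested genes were in that position, and for 7 of 10 under submergence, where 23.1% were. These counts describe the choice of genes and support nothing further. In air they were these 4 defensins, ERF1 and PR4, and under submergence ORA59 was a further one.

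For phyA-211 against wild type, no difference of these 4 defensins passed an adjusted p of 0.05 in limma, adjusted over all 20302 genes tested. In air, PDF1.2 differed by a log2 fold change of 1.43 (95% interval -0.68 to 3.53, limma adjusted p = 0.564) and PDF1.2c by 1.92 (-0.42 to 4.25, limma adjusted p = 0.449). PDF1.2b differed by 2.10 (0.41 to 3.79, limma adjusted p = 0.185), and by an adjusted p of 0.0328 when limma was fitted to those 6 libraries alone. PDF1.3 differed by 0.85 (limma adjusted p = 0.816). Under submergence the values were 1.73 for PDF1.2 (-0.38 to 3.83, limma adjusted p = 0.176), 2.29 for PDF1.2c (-0.05 to 4.63, limma adjusted p = 0.109), 0.83 for PDF1.2b (limma adjusted p = 0.427) and -0.09 for PDF1.3 (limma adjusted p = 0.963). Without submerged phyA-211 replicate 1 they were 1.29, 1.83, 0.10 and -0.85 in the same order, with limma adjusted p of 0.371, 0.25, 0.936 and 0.608. All of these intervals but that of PDF1.2b in air include 0. Fitted to the 6 submerged libraries of the 2 lines alone, PDF1.2 and PDF1.2c passed, with limma adjusted p of 0.0489 and 0.0343. The fit to all 18 libraries gives each gene 1 variance for all groups, ein3eil1 included.

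No submergence difference of these 4 defensins passed the threshold in any line. In phyA-211 the submerged-to-air log2 fold change was -0.50 for PDF1.2 (limma adjusted p = 0.696), 0.02 for PDF1.2c (0.990), -1.47 for PDF1.2b (0.136) and -0.87 for PDF1.3 (0.550). Without submerged phyA-211 replicate 1, PDF1.2b was lower by a log2 fold change of -2.20, with a limma adjusted p of 0.0361. In that setting PDF1.2 was at -0.94 (limma adjusted p = 0.502), PDF1.2c at -0.44 (0.787) and PDF1.3 at -1.62 (0.295). In ein3eil1 the values were -0.75 for PDF1.2 (limma adjusted p = 0.521), -0.73 for PDF1.2c (0.573), -0.85 for PDF1.2b (0.363) and -0.11 for PDF1.3 (0.944). Wild type gave -0.80 for PDF1.2 (95% interval -2.91 to 1.3, limma adjusted p = 0.506), -0.35 for PDF1.2c (0.807), -0.21 for PDF1.2b (0.844) and 0.08 for PDF1.3 (0.961). The wild-type difference of PDF1.2, whose groups did not overlap, had an adjusted p of 0.00823 when limma was fitted to the 6 wild-type libraries alone. Over the settings other than leaving out a library it ranged from -0.87 to -0.34. Limma adjusted p over all settings reached 0.793. In wild type, 49.5% of tested genes had every submerged library below every air library.

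PDF1.1 and PDF1.4 behaved otherwise: both rose under submergence in all 3 lines, and in submerged leaves the ein3eil1 and wild-type ranges of each overlapped. PDF1.1, which in Arabidopsis is known mainly from seeds, had 56.01, 37.14 and 33.40 TPM in submerged phyA-211 leaves against 0.20, 0.23 and 0.28 TPM in air. In ein3eil1 it had 144.01, 49.19 and 146.05 TPM submerged and was listed at 0 in all 3 air libraries, and in wild type it had 87.83, 76.14 and 80.54 TPM submerged against 0.00, 0.54 and 0.00 TPM in air. No submerged library overlapped any air library. The submerged-to-air log2 fold change, which against such low air values depends on the 1 TPM added, was 5.09 ± 0.32 in phyA-211 (SE, limma adjusted p = 3.65e-09) and 6.16 ± 0.32 in wild type (limma adjusted p = 7.59e-10). In ein3eil1 the difference also passed (limma adjusted p = 2.49e-10), with no fold given against a group listed at 0. Summed over 4 seed marker genes, TPM was also higher under submergence. The sums were 0.44 to 2.70 TPM submerged and 0 in air in phyA-211. They were 1.25 to 3.63 TPM against 0 to 0.21 TPM in ein3eil1, and 1.32 to 2.11 TPM against 0 to 0.11 TPM in wild type. Of the 4 genes, only 1 was above 0 in each submerged phyA-211 library, 2 to 3 in submerged ein3eil1 and 1 to 2 in submerged wild type. The part of these marker genes in the PDF1.1 result was not tested.

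PDF1.4, the least similar of the class, with 56.7% to 59.8% coding identity to the others against 87.2% to 94.7% among the other 5, had 36.14, 16.34 and 21.31 TPM in submerged phyA-211 leaves against 2.25, 1.59 and 1.81 TPM in air. In ein3eil1 it had 53.79, 31.67 and 63.44 TPM submerged against 15.32, 5.73 and 3.06 TPM in air. Wild type had 46.35, 47.74 and 56.73 TPM submerged against 8.86, 20.71 and 17.60 TPM in air. Submerged libraries were above the air libraries of their own line in all 3 lines, and phyA-211 libraries lay below the wild-type libraries of the same condition. In air they also lay below every ein3eil1 library. The rise was a log2 fold change of 3.08 ± 0.43 in phyA-211 (SE, limma adjusted p = 1.89e-05), 2.67 ± 0.43 in ein3eil1 (6.07e-05) and 1.69 ± 0.43 in wild type (0.00341). In air, PDF1.4 was lower in phyA-211 than in wild type by a log2 fold change of -2.47 ± 0.43 (SE, 95% interval -3.37 to -1.56, limma adjusted p = 0.00453), and this call held under every alternative tried. Under submergence the difference was -1.07 (limma adjusted p = 0.0582), and -1.38 without submerged phyA-211 replicate 1 (0.0213). PDF1.1 was lower in submerged phyA-211 than in submerged wild type, by -0.97 ± 0.32 (SE, 95% interval -1.65 to -0.28, limma adjusted p = 0.0282). That call became -1.19 with an adjusted p of 0.0084 without submerged phyA-211 replicate 1, and was lost without submerged phyA-211 replicate 2 (0.0951) or 3 (0.118), without submerged wild-type replicate 1 (0.0804), 2 (0.0574) or 3 (0.0659), with 0.1 TPM added in place of 1 (0.171) and with group weights (0.0913).

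Of the regulators, ORA59, whose product activates PDF1.2, rose under submergence in phyA-211 and wild type. It had 102.35, 83.28 and 71.01 TPM in submerged phyA-211 leaves against 64.88, 28.77 and 29.68 TPM in air. In ein3eil1 it had 12.01, 11.58 and 12.73 TPM submerged against 20.43, 18.72 and 6.04 TPM in air, and in wild type 58.20, 62.17 and 61.42 TPM submerged against 18.46, 28.82 and 30.75 TPM in air. Submerged libraries lay above air libraries in phyA-211 and wild type, and the ein3eil1 submerged values lay within that line's air range. The log2 fold change was 1.13 ± 0.36 in phyA-211 (SE, limma adjusted p = 0.0167), -0.13 in ein3eil1 (95% interval -0.91 to 0.64, limma adjusted p = 0.761) and 1.22 ± 0.36 in wild type (limma adjusted p = 0.00959). The difference between the ein3eil1 and wild-type responses was not tested, since those groups chose the genes. The phyA-211 call was lost without air replicate 2 (log2 fold change 0.93, limma adjusted p = 0.0716) or 3 (0.95, 0.0708), without submerged replicate 1 (0.99, 0.0523), with quantile normalization (0.92, 0.0586) and with group weights (0.192). The wild-type call was lost without air replicate 1 (1.00, 0.0512). Between lines, ORA59 in ein3eil1 differed from wild type by -0.88 in air and by -2.23 under submergence, as a description. In phyA-211 it differed from wild type by a log2 fold change of 0.57 in air (limma adjusted p = 0.516) and 0.48 under submergence (0.314), where all 3 phyA-211 libraries were nonetheless above all 3 of wild type.

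ERF1, a direct target of EIN3 and an activator of PDF1.2, was between 1.47 and 10.25 TPM in all libraries, with 6.11, 6.14 and 6.63 TPM in submerged phyA-211 leaves against 10.25, 2.01 and 4.73 TPM in air. It had 1.47, 1.88 and 2.13 TPM in submerged ein3eil1 leaves against 2.57, 3.49 and 3.94 TPM in air, and 3.31, 3.20 and 3.03 TPM in submerged wild type against 4.45, 6.29 and 8.23 TPM in air wild type. Submerged values were below all air values in ein3eil1 and wild type, where 52.9% and 49.5% of tested genes were in that position. In phyA-211 they lay inside the air range. None of the submergence differences passed: the log2 fold change was 0.33 in phyA-211 (limma adjusted p = 0.425), -0.61 in ein3eil1 (0.119) and -0.78 in wild type (95% interval -1.48 to -0.07, 0.0572). In wild type it passed when limma was fitted to the 6 wild-type libraries alone (0.00652), with group weights (0.00388) and without air replicate 1 (-0.97, 0.0399). In ein3eil1 it passed when fitted to its own 6 libraries (0.0219). Over the settings other than leaving out a library, the log2 fold change ranged from -0.93 to -0.26 in wild type and from -0.83 to -0.08 in ein3eil1. Limma adjusted p over all settings reached 0.585 and 0.873. ERF1 in phyA-211 passed in the other direction without air replicate 1 (0.81, 0.0174). Under submergence ERF1 was 0.80 higher in phyA-211 than in wild type on the log2 scale, without passing (limma adjusted p = 0.0664), and passed when fitted to those 6 libraries alone (0.037). Set side by side in wild type, every submerged library was higher for ORA59 and lower for ERF1. Of all tested genes, 24.4% and 49.5% held these positions, and the ERF1 difference did not pass.

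Both effector genes outside the defensin family are ethylene-responsive in Arabidopsis. PR4, which encodes a hevein-like protein, had 751.00, 1297.97 and 1073.96 TPM in submerged phyA-211 leaves against 766.71, 782.74 and 508.91 TPM in air. It had 164.68, 114.11 and 163.46 TPM in submerged ein3eil1 leaves against 132.10, 77.46 and 36.47 TPM in air, and 754.77, 730.65 and 772.45 TPM in submerged wild type against 445.30, 561.96 and 411.98 TPM in air wild type. All ein3eil1 libraries lay below all others, and wild-type libraries were higher under submergence without overlap. The submerged-to-air log2 fold change was 0.59 in phyA-211 (limma adjusted p = 0.164), 1.00 ± 0.34 in ein3eil1 (SE, limma adjusted p = 0.0184) and 0.68 in wild type (95% interval -0.05 to 1.41, limma adjusted p = 0.102). Only the ein3eil1 value passed, although its submerged and air ranges overlapped, and it was lost when fitted to its own 6 libraries (0.085) and without air replicate 3 (0.52, 0.122), submerged replicate 1 (0.91, 0.0593) or submerged replicate 3 (0.92, 0.0591). In wild type PR4 passed when fitted to its own 6 libraries (0.000788), with group weights (0.0384) and with libraries centred on their medians (1.14, 0.0115). Over the settings other than leaving out a library the wild-type value ranged from 0.38 to 1.14. Limma adjusted p over all settings reached 0.429. For PR4, ein3eil1 differed from wild type by -2.68 in air and by -2.36 under submergence on the log2 scale, as a description, and phyA-211 differed from wild type by 0.52 in air (limma adjusted p = 0.534) and 0.43 under submergence (0.333).

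HCHIB, which encodes a basic chitinase, had 4.60, 14.02 and 16.58 TPM in submerged phyA-211 leaves against 6.22, 18.30 and 3.07 TPM in air. It had 4.16, 2.61 and 3.72 TPM in submerged ein3eil1 leaves against 5.54, 2.96 and 2.50 TPM in air, and 2.64, 2.50 and 2.41 TPM in submerged wild type against 4.34, 3.91 and 7.14 TPM in air wild type. Under submergence every phyA-211 library was above every wild-type library, and HCHIB was higher there by a log2 fold change of 1.70 ± 0.48 (SE, 95% interval 0.67 to 2.72, limma adjusted p = 0.0143). The value was 2.21 (0.00101) without submerged phyA-211 replicate 1, and the call was lost without submerged phyA-211 replicate 2 (1.5, 0.0666) or 3 (1.38, 0.0794), with quantile normalization (1.2, 0.0671) and when fitted to those 6 libraries alone (0.0697). In air the difference was 0.47 (limma adjusted p = 0.742). The response of HCHIB to submergence did not pass in any line, with log2 fold changes of 0.46 in phyA-211 (limma adjusted p = 0.445), -0.01 in ein3eil1 (0.983) and -0.77 in wild type (0.186). In wild type it passed when fitted to its own 6 libraries (0.00831) and with group weights (0.0242). Over the settings other than leaving out a library the wild-type value ranged from -0.95 to -0.26. Limma adjusted p over all settings reached 0.66.

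**Figure D4:**
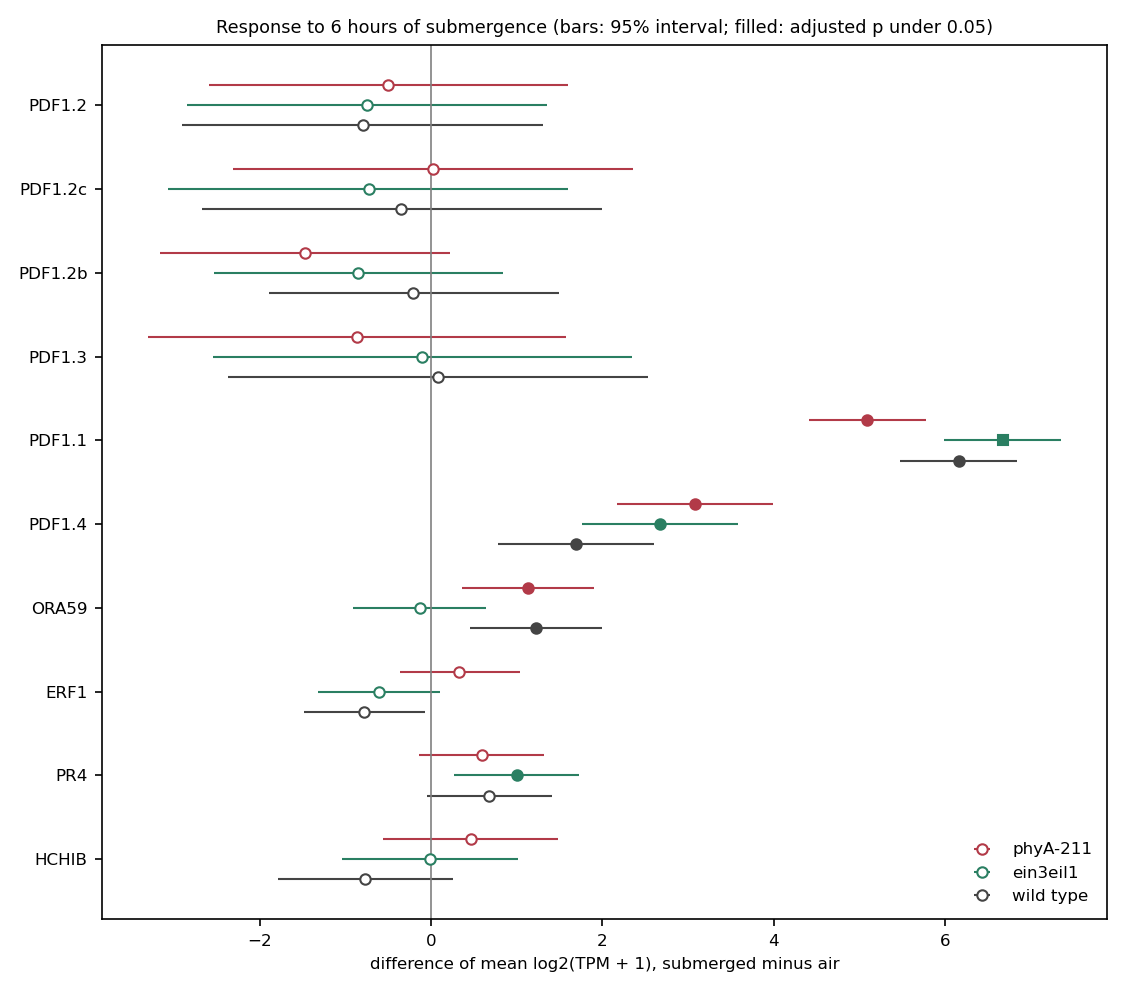
Submerged-to-air log2 fold change of each gene in phyA-211, ein3eil1 and wild type, with 95% intervals from limma and filled points where the adjusted p was under 0.05. PDF1.1 and PDF1.4 lie far to the right in every line, and the square for PDF1.1 in ein3eil1 marks a gene listed at 0 in air, whose place depends on the 1 TPM added.

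Counted over the set, submergence raised 3 of the 10 genes and lowered 0 in phyA-211 (PDF1.1, PDF1.4 and ORA59), where 27.3% of all tested genes were higher and 23.9% lower. In ein3eil1 it raised 3 (PDF1.1, PDF1.4 and PR4) and lowered 0, where 17% of tested genes were higher and 47.3% lower. In wild type it raised 3 (PDF1.1, PDF1.4 and ORA59) and lowered 0, where 18.9% were higher and 38% lower. All 3 submerged libraries were above all 3 air libraries for 3 members in phyA-211, 2 in ein3eil1 (PDF1.1 and PDF1.4) and 4 in wild type (with PR4), where 23.4%, 19.9% and 24.4% of tested genes were in that position. They were below for 0 members in phyA-211, 1 in ein3eil1 (ERF1) and 3 in wild type (PDF1.2, ERF1 and HCHIB), where 23.5%, 52.9% and 49.5% of tested genes were. The background splits by the test depended on scaling: with libraries centred on their medians they were 30.5% and 26.2% in ein3eil1 and 32.2% and 22.3% in wild type, and with quantile normalization 25.2% and 33.1% and 26.1% and 26.9%. Median log2 fold changes of the 10 genes and of all tested genes were 0.40 and 0.07 in phyA-211, -0.12 and -0.48 in ein3eil1, and -0.06 and -0.32 in wild type. The share of members called higher was thus near or somewhat above the background in each line.

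Between phyA-211 and wild type in air, 0 members were higher and 1 was lower (PDF1.4), against 1.63% and 2.38% of tested genes. At an unadjusted p under 0.05 there were 2 of the 10 members and 3235 of the 20302 tested genes. All 3 phyA-211 libraries were above all 3 wild-type libraries for 3 members (PDF1.2, PDF1.2b and PDF1.2c), where 8.89% of tested genes were in that position, and below them for 1 member, where 13.9% were. Under submergence 1 member was higher (HCHIB) and 1 lower (PDF1.1), against 32.7% and 6.44% of tested genes, or 11.6% and 20.2% with libraries centred on their medians and 13.5% and 11.2% with quantile normalization. There 5 members (PDF1.2, PDF1.2c, ORA59, ERF1 and HCHIB) were higher without overlap, where 33.5% of tested genes were, and 2 (PDF1.1 and PDF1.4) were lower without overlap, where 11% were. Without submerged phyA-211 replicate 1 the calls were 1 higher and 2 lower, against 44.9% and 10.6% of tested genes.

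The submergence response differed between phyA-211 and wild type past the threshold for 0 of the 10 genes in limma, against 20.4% of tested genes with a more positive and 4.19% with a more negative response in phyA-211. With median centring these shares were 6% and 11.7%, and with quantile normalization 7.06% and 6.58%. At an unadjusted p under 0.05 there were 3 members and 8679 tested genes. The members were PDF1.1 (-1.07, 95% interval -2.03 to -0.10, limma adjusted p = 0.0885), PDF1.4 (1.39, 0.11 to 2.68, 0.0928) and ERF1 (1.11, 0.11 to 2.11, 0.0865). Without submerged phyA-211 replicate 1, PDF1.1 (-1.28, limma adjusted p = 0.0297) and HCHIB (1.74, 0.0307) passed. In that setting 41% of tested genes had a more positive and 9.82% a more negative response in phyA-211. ERF1 passed without air phyA-211 replicate 1 (1.59, 0.013), and HCHIB without air phyA-211 replicate 2 (1.84, 0.0352). These comparisons share the same phyA-211 and wild-type libraries, so they are not separate evidence.

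**Figure D5:**
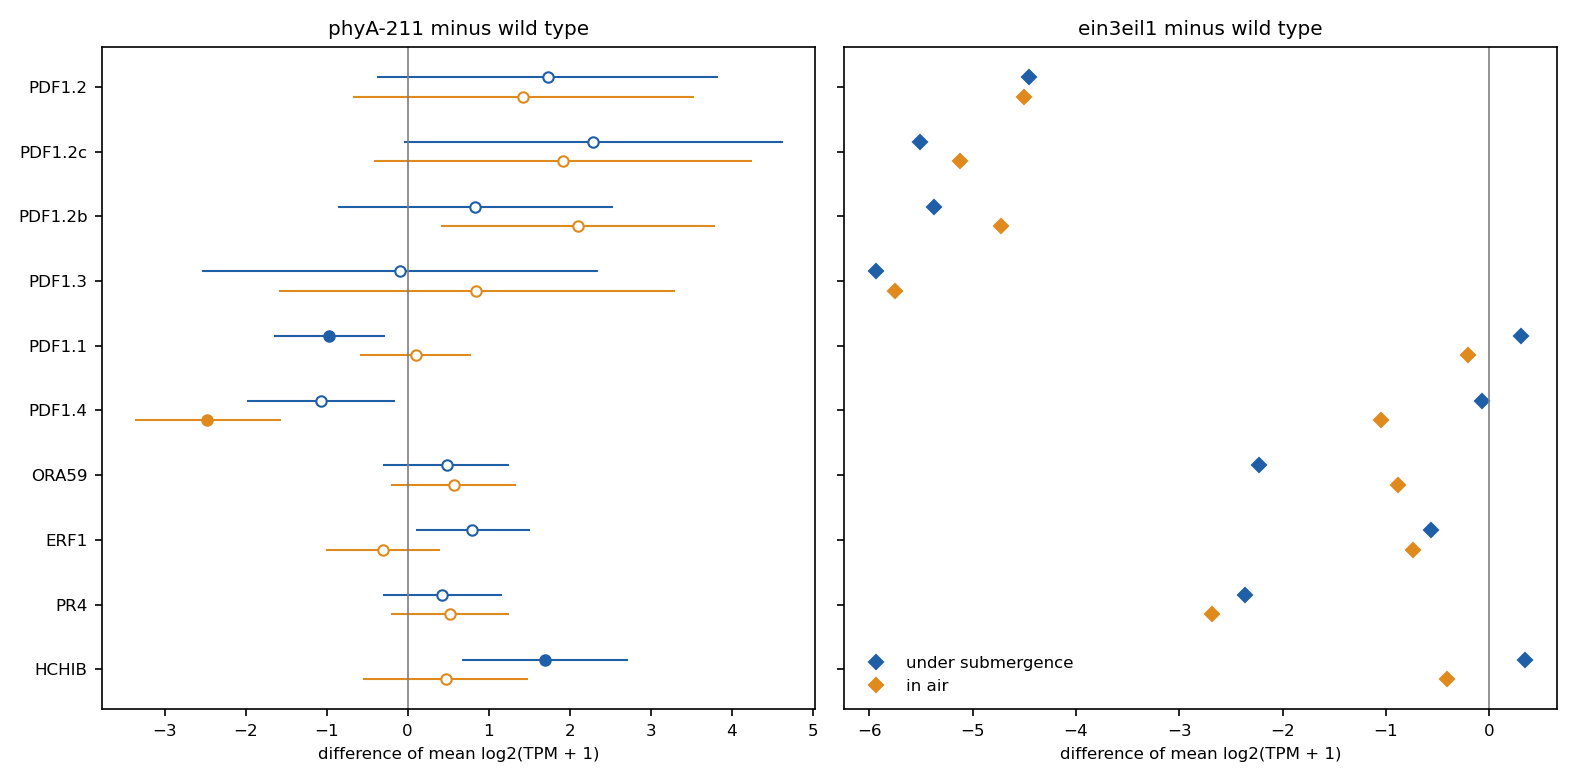
Log2 fold change of each gene in phyA-211 (left, with 95% intervals from limma) and in ein3eil1 (right, without intervals or test) against wild type, under submergence in blue and in air in orange. In ein3eil1 the 4 defensins led by PDF1.2 lie between -4.45 and -5.93, while PDF1.1 and PDF1.4 stay between -1.05 and 0.31.

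Other genes of the pathway were counted on lists named by function, with log2 fold changes from the same limma fit. Of all tested genes, submergence raised 27.3% and lowered 23.9% in phyA-211, 17% and 47.3% in ein3eil1, and 18.9% and 38% in wild type. Their median log2 fold changes were 0.07, -0.48 and -0.32. For phyA-211 against wild type, 32.7% were higher and 6.44% lower under submergence, and 1.63% and 2.38% in air. The response was more positive in phyA-211 for 20.4% and more negative for 4.19%. Of 9 other defensin genes 4 were tested. Submergence lowered LCR68, which encodes the defensin PDF2.3, in phyA-211 to 34.8 ± 10.9 TPM against 65.7 ± 1.84 TPM in air (SD, n = 3, limma adjusted p = 0.00157). It also lowered LCR68 in ein3eil1, to 45.2 ± 11.4 TPM against 88.7 ± 9.01 TPM (0.000852), a call lost with median centring (0.203). It raised LCR69 (PDF2.2) in wild type to 126 ± 5.81 TPM against 29.6 ± 16.5 TPM (0.00237). LCR59 rose in ein3eil1 to 17.8 ± 8.3 TPM against 0.147 ± 0.254 TPM (2.72e-09). LCR69 and LCR68 were lower in submerged phyA-211 than in submerged wild type, with 38 ± 14 TPM against 126 ± 5.81 TPM (limma adjusted p = 0.0182) and 34.8 ± 10.9 TPM against 71.7 ± 3.44 TPM (0.00271). Thus 2 of 4 other defensins were lower in that comparison, also with either other scaling. The LCR69 call was lost without submerged phyA-211 replicate 2 (0.0636) or 3 (0.09), without submerged wild-type replicate 1 (0.0505) and with group weights (0.109).

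Other ethylene response factors of group IX, the group of ORA59 and ERF1, rose in most cases. Of 12 tested of 15, submergence raised 9 and lowered 1 in phyA-211, raised 7 and lowered 1 in ein3eil1, and raised 7 and lowered 1 in wild type, with median log2 fold changes of 1.90, 1.09 and 1.63. ERF104, an activator in defence, reached 317 ± 10.6 TPM in submerged phyA-211 leaves against 13.9 ± 6.39 TPM in air (limma adjusted p = 5.37e-09). Its response was larger in phyA-211 than in wild type by 2.16 (0.00654). In air ERF104 was lower in phyA-211 than in wild type, which had 42.3 ± 17.2 TPM (log2 fold change -1.54, limma adjusted p = 0.00766). That air call was lost without air wild-type replicate 2 (0.0526) and when fitted to those 6 libraries alone (0.13). The gene named ERF-1, distinct from ERF1, reached 425 ± 30.7 TPM in submerged ein3eil1 leaves against 44.6 ± 5.47 TPM in air (1.81e-07). TDR1, also a group IX factor and the neighbour of ERF1 on chromosome 3, was lower in submerged phyA-211 than in submerged wild type, with 1.41 ± 1.22 TPM against 9.47 ± 0.422 TPM (0.00633). The submerged phyA-211 against wild-type count of this list, 3 higher and 1 lower, turned to 0 and 2 with median centring and to 1 and 1 with quantile normalization.

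Repressors of group VIII include ERF4 and ERF9, which lower PDF1.2. Of 8 tested, submergence raised 6 and lowered 1 in phyA-211, raised 1 and lowered 3 in ein3eil1, and raised 2 and lowered 2 in wild type. With median centring these counts were 5 and 1, 2 and 1, and 4 and 0. ERF9 reached 18 ± 4.49 TPM in submerged phyA-211 leaves against 2.55 ± 1.22 TPM in air (limma adjusted p = 7.53e-07), and 19.9 ± 0.767 TPM in submerged wild type against 2.9 ± 0.592 TPM in air (9.44e-07). Its level in submerged ein3eil1 leaves was 0.677 ± 0.443 TPM. ERF4 was higher in submerged phyA-211 than in submerged wild type, with 189 ± 18.9 TPM against 72.7 ± 3.41 TPM (5.8e-05).

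Jasmonate signalling genes went several ways. A list of 14 genes held the JAZ repressors, their receptor and an adaptor. Of these, submergence raised 4 and lowered 3 in phyA-211, raised 7 and lowered 4 in ein3eil1, and raised 2 and lowered 9 in wild type (2 and 3 with median centring). The phyA-211 count was 7 and 3 without submerged phyA-211 replicate 1, and the ein3eil1 count 9 and 1 with median centring. JAZ8 reached 87 ± 36.4 TPM in submerged ein3eil1 leaves against 5.28 ± 1.25 TPM in air (limma adjusted p = 2.12e-06), and JAZ1 reached 171 ± 49.7 TPM in submerged phyA-211 leaves against 43.4 ± 10 TPM in air (3.22e-05). The MYC branch, 9 genes, fell in wild type, where 8 were lower and 0 higher with a median of -2.82, against 5 lower and 1 higher in phyA-211 (median -1.64) and 3 lower and 0 higher in ein3eil1 (median -0.51, and 3 lower and 2 higher with median centring). LOX2, a jasmonate synthesis gene, had 50 ± 23.9 TPM in submerged phyA-211 leaves against 905 ± 272 TPM in air (3.92e-08), 109 ± 34.3 against 627 ± 132 TPM in ein3eil1 (8.18e-06) and 19.5 ± 0.767 against 861 ± 162 TPM in wild type (4.27e-09). MYC2 itself was higher in submerged phyA-211 than in submerged wild type, with 15.2 ± 6.73 TPM against 3.33 ± 0.473 TPM (0.00094), and its response differed by 2.33 (0.00481).

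Ethylene receptor genes and regulators of EIN3, 10 in all, rose most in phyA-211, where 9 were higher and 0 lower, against 1 and 4 in ein3eil1 and 5 and 1 in wild type. The ein3eil1 split turned to 4 and 1 with median centring and 3 and 2 with quantile normalization. EBF2, whose F-box protein targets EIN3 for degradation, reached 293 ± 117 TPM in submerged phyA-211 leaves against 22.5 ± 5.51 TPM in air (limma adjusted p = 1.51e-07), and 103 ± 5.19 TPM in submerged wild type against 25.6 ± 4.31 TPM in air (7.95e-05). In ein3eil1 EBF2 had 8.5 ± 3.85 TPM submerged and 8.83 ± 1.14 TPM in air. The receptor gene ETR2 rose in all 3 lines, to 98.4 ± 39.2 TPM against 1.31 ± 0.472 TPM in phyA-211 (1.35e-09), 13.4 ± 5.2 against 0.877 ± 0.566 TPM in ein3eil1 (8.71e-07) and 24.4 ± 1.51 against 1.55 ± 0.397 TPM in wild type (3.02e-07). Of these 10 genes 8 were higher in submerged phyA-211 than in submerged wild type and 8 had a more positive response in phyA-211, with 0 lower or more negative. The first count was 5 with 1 lower under median centring, 7 with 0 lower under quantile normalization and 9 with 0 lower without submerged phyA-211 replicate 1, and the response count was 3 with either other scaling (with 1 more negative under median centring) and 9 without submerged phyA-211 replicate 1.

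On the salicylate side, 11 genes, submergence raised 3 and lowered 2 in phyA-211, raised 2 and lowered 1 in ein3eil1, and raised 0 and lowered 5 in wild type (2 and 4 with either other scaling). The ein3eil1 count was 5 and 0 with median centring and 4 and 2 with quantile normalization. GRX480, a glutaredoxin gene whose product represses ORA59, reached 1380 ± 498 TPM in submerged ein3eil1 leaves against 150 ± 62.9 TPM in air (limma adjusted p = 6.77e-05). In wild type it fell to 21.4 ± 1.99 TPM submerged, against 103 ± 26.5 TPM in air (0.00226). BGL2, the salicylate marker PR2, fell to 79.4 ± 47 TPM in submerged phyA-211 leaves against 529 ± 226 TPM in air (0.000168) and to 86.5 ± 3.11 TPM in submerged wild type against 779 ± 220 TPM in air (7.51e-05). Of 12 tested of 13 other chitinase genes, submergence raised 5 and lowered 3 in phyA-211, raised 4 and lowered 3 in ein3eil1, and raised 1 and lowered 4 in wild type (3 and 3 with median centring). The chitinase gene AT1G02360 reached 70.7 ± 29.1 TPM in submerged phyA-211 leaves against 6.47 ± 0.728 TPM in air (3.13e-08). In air, 5 of the 12 chitinase genes were lower in phyA-211 than in wild type and 1 was higher. A further list held 11 other genes, named jasmonate-ethylene defence effectors, without a check that each responds to both hormones. Of these, submergence raised 2 and lowered 4 in phyA-211, raised 3 and lowered 1 in ein3eil1, and raised 2 and lowered 5 in wild type. In submerged phyA-211, 5 of the 11 were lower than in submerged wild type. For these 11, the ein3eil1 count was 6 and 0 with median centring, and the phyA-211 count 4 and 4 without submerged phyA-211 replicate 1.

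Across libraries, PDF1.2 varied with PDF1.2c (Pearson r = 0.99 over 18 libraries and 0.95 over the 12 without ein3eil1), PDF1.2b (0.97 and 0.83) and PDF1.3 (0.97 and 0.54). Its r with its activator ORA59 was 0.74 over 18 libraries and -0.02 over 12, and with PR4 0.86 and 0.05. PDF1.1 and PDF1.4 gave 0.83 and 0.79, and ORA59 and PR4 gave 0.88 and 0.77. These values are a description: libraries of 1 group share line and treatment, so the points are not independent. The values over 18 libraries also include the difference between ein3eil1 and wild type on which the genes were selected. They are therefore no separate evidence that the members vary together. Non-members with a mean of at least 2 TPM were ranked by r over 18 libraries. The gene most like PDF1.2 was the chitinase-family gene AT2G43590 (r = 0.89 over 18 libraries, 0.45 over 12). After it came BBX27 (0.88 and -0.02) and AT4G38860 (0.87 and 0.41). All of these r values were lower without ein3eil1, so the PDF1.2 ranking cannot be read apart from the difference that selected the genes. The closest to PDF1.4 was AT2G39518 (0.96 and 0.96). AT4G28240 was the closest to ORA59 (0.93 and 0.97), RABE1c to ERF1 (0.90 and 0.89) and GGH3 was among the 3 closest to HCHIB (0.78 and 0.86).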

How the data were processed

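Leaf mRNA was selected with oligo(dT) and primed with random primers, per the labels' protocols. The authors deposited 1 table of normalized expression for 32833 genes in 18 libraries. The deposited values were taken as TPM, scaled by the authors for transcript length and library total, because each library summed to between 996104.85 and 998619.88. No header names the unit. HISAT2 and the build TAIR10 are named without a role, per the submitters' processing notes. Strandedness and read depth are not given in the sources used here. TPM keeps no depth, so no counting interval could be given.

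The 20302 genes that reached 1 TPM in 3 or more libraries, all 10 members among them, were tested on log2(TPM + 1) with limma 3.58.1 (trend and robust options, R 4.3.3), using 1 model of 6 group means over all 18 libraries. P-values were adjusted over all tested genes by Benjamini-Hochberg, with a threshold of 0.05, and 95% intervals are limma's. A fold change on this scale understates the change of low genes. Members and lists were chosen with earlier results of these data known. Of each list, genes were named from the 2 called genes with the largest absolute change in each comparison. RefSeq TAIR10.1 gave gene names (32548 genes matched) and upstream windows, read with Biopython 1.88. Scripts were tested on simulated data. Of 50-base stretches of the transcripts, 5% in PDF1.2b, 4.9% in PDF1.3, 0.601% in PDF1.2c and 0.566% in PDF1.2 also occurred in another gene, and none did at 100 or 150 bases, so reads shorter than that may be split between these genes.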

Additional observations from a re-analysis of the deposited data

How the results depend on the processing

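Of 840 values of member genes in the 6 tested comparisons under other settings and with each library left out, 751 kept their direction and side of the threshold, 21 lost a call, 22 gained one and 46 changed sign, none of them a called value. Among the settings other than leaving out a library, counts of called members moved as follows. Higher calls under submergence, 3 in each line as reported, were 4 in wild type with median centring, with only the libraries of the comparison and with group weights, 2 in phyA-211 with quantile normalization and with group weights, and 2 in ein3eil1 with only the libraries of the comparison. With only the libraries of a comparison in the fit, lower calls under submergence were 3 in wild type and 1 in ein3eil1 (0 in each otherwise), and phyA-211 against wild type gave 1 higher in air (0 otherwise) and 3 higher under submergence (1 otherwise). With group weights, lower calls were 2 in wild type under submergence, and 0 in submerged phyA-211 against wild type (1 otherwise). In that comparison quantile normalization gave 0 higher, 0.1 TPM added gave 0 lower and median centring gave 2 lower. With 1 library left out, higher calls under submergence were 2 to 4 in phyA-211, 2 to 3 in ein3eil1 and 2 to 3 in wild type, and lower calls were 0 to 1 in wild type and in phyA-211 under submergence. Submerged phyA-211 against wild type then gave 0 to 1 higher and 0 to 2 lower, and the difference of response 0 to 1 positive and 0 to 1 negative. No filter on low values changed no count.

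Changed signs concerned values that did not pass. Under median centring, submergence gave 0.12 for PDF1.2c and 0.26 for PDF1.2b in wild type, -0.05 for PDF1.2c in phyA-211, and 0.43 for PDF1.3, 0.40 for ORA59 and 0.52 for HCHIB in ein3eil1. It gave -0.03 for PR4 in submerged phyA-211 against wild type and, for the difference of response, -0.24 for PDF1.2 and -0.17 for PDF1.2c. Quantile normalization gave -0.21 for PDF1.3 in wild type, 0.24 for PDF1.3, 0.37 for ORA59 and 0.55 for HCHIB in ein3eil1, and 0.14 for PR4 in the difference of response. Leaving out 1 library gave ranges across 0. In phyA-211 under submergence these were -0.44 to 0.44 for PDF1.2c, -0.14 to 0.81 for ERF1 and -0.05 to 1.07 for HCHIB. In ein3eil1 they were -1.49 to 0.54 for PDF1.2, -1.53 to 0.82 for PDF1.2c, -1.44 to 0.22 for PDF1.2b, -0.91 to 1.4 for PDF1.3, -0.65 to 0.15 for ORA59 and -0.19 to 0.26 for HCHIB. In wild type they were -0.55 to 0.03 for PDF1.2b and -0.26 to 0.49 for PDF1.3. For phyA-211 against wild type in air they were -0.01 to 0.31 for PDF1.1, -0.79 to 0.17 for ERF1 and -0.14 to 0.98 for HCHIB, and under submergence -0.85 to 0.57 for PDF1.3. For the difference of response they were -0.14 to 0.59 for PDF1.2, -0.09 to 0.78 for PDF1.2c, -0.29 to 0.28 for ORA59 and -0.29 to 0.13 for PR4. The cause was not tested.

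The median difference of the 10 genes between ein3eil1 and wild type was -1.87 in air and -2.30 under submergence, and with 1 library left out it lay between -2.36 and -1.52 and between -2.36 and -2.20. Replicate numbers did not pair the samples across all groups: same-numbered libraries of different groups had deviations that correlated with r of -0.375 to 0.438 (median -0.007), over 0.1 in 7 of 45 pairs. Between air and submerged phyA-211, r was 0.438 for replicate 1 and 0.201 for replicate 2, both best with their own number. For replicate 3 it was 0.090 and not the best. Pairing within that line was not tested, since a block was fitted only across all groups. Taking the replicate number as a block left the counts unchanged, at 3 higher and 0 lower for submergence in each line, 0 and 1 for phyA-211 against wild type in air, 1 and 1 under submergence, and 0 and 0 for the difference of response. List counts and named list genes were put through the same settings after seeing the data. Median centring moved the median log2 fold change of all tested genes to 0.15, against -0.32 as deposited, for submergence in wild type, to 0.05 against -0.48 in ein3eil1, to -0.17 against 0.29 for submerged phyA-211 against wild type and to -0.19 against 0.35 for the difference of response. Intervals of the 4 defensins span several log2 units, with 3 libraries a group, no read depth and 1 variance per gene for all groups. The SD of PDF1.2 on the log2 scale was 2.25 in air ein3eil1 and 2.07 in submerged ein3eil1. In wild type it was 0.41 in air and 0.03 submerged. What sets the width of the intervals was not tested.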
